A study of Mus musculus with 8 samples.

Results

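The mouse PYHIN genes form a family of interferon-inducible genes on chromosome 1, and 10 of them were followed here: Aim2, Ifi203, Ifi204, Ifi205, Ifi207, Ifi208, Ifi209, Ifi211, Ifi213 and Mndal. They were chosen by name from the Ifi200 cluster and matched to the Ensembl identifiers of the count tables, which held 54532 genes. All 10 were found, and all 10 were among the 14591 genes with enough counts to be tested.

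The data are RNA-Seq counts of polyadenylated RNA from BMDMs, that is, macrophages differentiated from bone marrow over 7 days with L929 cell supernatant. Marrow donors were wild-type (WT) mice or Trex1 knockout mice, which lack a DNA exonuclease that clears DNA from the cytosol. Mice had a C57BL/6J background and were between 6 and 8 weeks old. The 8 libraries formed 4 groups of 2, namely WT BMDMs, Trex1-/- BMDMs (Trex1-KO), Trex1-/- BMDMs given H151, and Trex1-/- BMDMs given SN-011. WT and Trex1-/- control cells received the vehicle DMSO, and all cells were incubated for 12 h. H151 was used at 500 nM, and the study's methods state the same concentration for SN-011, for which the labels state none. Both compounds are small molecules that inhibit STING. H151 acts through covalent modification of STING, and SN-011 occupies its ligand pocket. The 6 knockout libraries, treated or not, share the loss of Trex1. Per the study's methods, Trex1-/- mice were bred from heterozygous parents, whereas WT mice were purchased. Genotype and source of the mice therefore cannot be told apart in comparisons with WT. The study describes the libraries of a group as independent experiments, and neither it nor the labels say whether these used different animals. The p-values therefore measure the spread between these libraries.

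PYHIN proteins generally pair a pyrin domain, which joins proteins of inflammasomes and related complexes, with a HIN domain, which binds DNA. AIM2 binds double-stranded DNA in the cytosol and recruits the adaptor ASC, which leads to activation of caspase-1. IFI204 is the mouse protein most often compared with human IFI16, which acts with cGAS and STING in sensing DNA. STING activation drives type I interferon, and interferon-stimulated factors bind an element in the promoters of many target genes, the interferon-stimulated response element (ISRE).

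The 10 genes lie within 680.9 kb (chr1:173350879-174031810, GRCm38), a stretch that holds 21 annotated genes, 13 of them protein coding. Aim2 sits at one end and Ifi205 at the other. Aim2, Ifi208 and Ifi209 are on the plus strand and the other 7 genes on the minus strand. Several members are nearly identical over part of their length. The longest transcripts of Ifi205 and Ifi211 align at 97.3% identity over 1099 bases, and those of Ifi208 and Ifi213 at 96.3% over 2755 bases.

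Promoter sequences (250 bases before to 50 after the gene start, RefSeq, GRCm38.p6) were found for 9 of the 10 members, with 11 promoters in all. The ISRE core was searched on both strands as GAAA, any 2 bases and a further GAAA. It was present in 7 of the 9 members and in 8 of the 11 promoters, whereas 3.44% of all 32851 promoters in the table held it. The GAS element, a STAT dimer site searched as TTC, any 3 bases and GAA, which reads the same on both strands, was in 0 of the 11 promoters and in 8.30% of all promoters. The stretches around the best match to GAAATCGAAA, the commonest form of the core among the members, are given 5′ to 3′ on the strand of the gene, because they carry what the members share that their selection did not use. Capitals mark the 10 bases of the match.
Ifi213 (chr1:173599316-173599365, minus strand): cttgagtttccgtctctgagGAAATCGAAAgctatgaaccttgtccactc
Ifi208 (chr1:173673587-173673636, plus strand): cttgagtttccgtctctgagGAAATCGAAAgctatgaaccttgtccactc
Ifi205 (chr1:174031860-174031909, minus strand): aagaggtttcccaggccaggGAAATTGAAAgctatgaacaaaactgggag
Ifi211 (chr1:173913054-173913103, minus strand): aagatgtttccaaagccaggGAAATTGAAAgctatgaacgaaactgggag
Ifi209 (chr1:173630760-173630809, plus strand): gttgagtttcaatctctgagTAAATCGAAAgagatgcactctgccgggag
Ifi203 (chr1:173942498-173942547, minus strand): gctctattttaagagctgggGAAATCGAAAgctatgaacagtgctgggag
Mndal (chr1:173880194-173880243, minus strand): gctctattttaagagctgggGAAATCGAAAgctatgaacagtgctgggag
Ifi207 (chr1:173741821-173741870, minus strand): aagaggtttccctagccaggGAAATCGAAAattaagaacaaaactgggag

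The 50-base stretches of Ifi203 and Mndal were identical, as were those of Ifi208 and Ifi213, and those of Ifi205 and Ifi211 differed at 4 positions. GAAATCGAAA itself was in 16 of the 32851 promoters (0.0487%), 5 of them members and 2 of them the neighbouring PYHIN genes Ifi206 and Ifi214. This word was picked after the sequences were seen. Counted from 1 at the 5′ end of the word, Ifi205 and Ifi211 carried C6T, which keeps the ISRE core, and Ifi209 carried G1T, which does not. Relative to the gene start, the first base of the core lay at -35 in Ifi203, -36 in Mndal, -37 in Ifi211, -41 in Ifi207, -58 in Ifi208, -73 in Ifi213 and -134 in Ifi205, which had another match at 23. Mndal had a further match at -54 of its other listed promoter. In Aim2 the nearest stretch differed from the word at 4 positions, and neither motif was found in its listed promoter (chr1:173420354-173420653, plus strand). The annotated extent of Aim2 starts upstream of that window, at 173350879. That of Mndal, on the minus strand, starts at 173942491, away from its listed promoters. No promoter at these starts was listed for Aim2 or Mndal, so none was searched as theirs. Like Aim2, Ifi209 had neither motif in its listed promoter. In Trex1-/- over WT BMDMs the log2 fold change of Ifi209 was 2.27 against 0.60 for Aim2. A link between a motif and the size of the rise was not tested. The listed Aim2 promoter is printed whole because no close match to the word was found in it.
Aim2: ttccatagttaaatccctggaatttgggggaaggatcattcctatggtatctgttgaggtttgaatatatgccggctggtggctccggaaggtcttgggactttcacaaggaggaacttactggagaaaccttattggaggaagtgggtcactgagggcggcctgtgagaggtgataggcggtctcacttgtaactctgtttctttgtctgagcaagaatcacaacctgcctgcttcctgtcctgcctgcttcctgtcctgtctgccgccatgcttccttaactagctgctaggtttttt

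Total counts ran from 11845470 to 17284863 per library, so that 1 count was worth between 0.0582 and 0.0849 CPM, the count scaled to a common library total with TMM factors. Trex1 itself was listed at 0 in all 8 libraries, WT included, and therefore does not check the genotypes. The 10 macrophage markers summed to between 31381 and 33580 CPM in every library, of which Lyz2 made up 20296 to 23079 CPM. Of 7 T and NK cell genes, 6 never exceeded 3 counts, Cd3e, Cd8a and Ncr1 among them, and Cd4 had between 227 and 492 counts. Of 5 B cell genes, 3 never exceeded 3 counts, while Cd79a had 4 to 12 and Cd79b 23 to 54. The labels of the SN-011 libraries carry another treatment description than those of the other 6, and SN-011 treatment and a possible batch cannot be told apart.

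To see which members BMDMs express most, CPM values were divided by exon length (RPKM, which is CPM per kilobase of exon). Over all exon bases, the level of Ifi207 in WT BMDMs was highest at 89.6 ± 4.83 RPKM (SD, n = 2), followed by Mndal at 59.1 ± 3.33 and Ifi204 at 44.4 ± 3.16. Ifi203, Ifi209 and Ifi211 formed a middle group at 25.3 ± 2.28, 22.0 ± 0.285 and 20.7 ± 4.79 RPKM, and the range of the Ifi211 libraries covered both values of Ifi209. Aim2 was at 13.7 ± 0.0310 RPKM. Ifi213, Ifi208 and Ifi205 were lowest, at 2.89 ± 0.205, 1.27 ± 0.539 and 0.643 ± 0.312 RPKM. As an alternative divisor, the number of 150-base windows unique to each longest transcript was used, with all counts of the gene kept. This also replaces the length of all exons by that of the longest transcript. The WT order then changed for 3 neighbouring pairs. Mndal (116 RPKM) was above Ifi207 (93.6), Ifi211 (42.2) above Ifi209 (26.4) and Ifi205 (2.87) above Ifi208 (2.41).

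In Trex1-/- BMDMs the order of levels changed. Ifi207 was still first at 182 ± 8.42 RPKM, and Ifi204 and Mndal followed at 131 ± 0.870 and 127 ± 0.999. Ifi209 reached 106 ± 9.96, Ifi211 91.2 ± 2.06 and Ifi203 66.3 ± 1.97. Ifi213 passed Aim2, at 39.8 ± 0.963 against 20.8 ± 1.82 RPKM, and Ifi208 and Ifi205 were again last at 10.8 ± 1.47 and 4.06 ± 0.421. The order of the 6 highest members depends on the length used. Divided by the exon bases not shared with other genes, Mndal was at 132.9 RPKM in Trex1-/- BMDMs and lay above Ifi204. Divided by the number of unique windows, Mndal (250.2) and Ifi204 (244.1) lay above Ifi207 (191). Ifi211 (186) likewise lay above Ifi209 (127) with this divisor, and Ifi203 was at 124 RPKM. These values count all reads of a gene, not only reads in the unshared or unique stretches.

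The first comparison asked how the family differed between Trex1-/- and WT BMDMs. All 10 members were higher in Trex1-/- than in WT BMDMs (edgeR quasi-likelihood test, FDR under 0.05), and 9.27% of all tested genes were called higher in this comparison. The median log2 fold change was 1.85 over the members and -0.00 over all genes tested. In all 10 members both Trex1-/- libraries lay above both WT libraries, which was so for 28.6% of all genes. Rises spanned from 1.51-fold for Aim2 to 13.8-fold for Ifi213. In bulk RNA, a larger share of expressing cells and more RNA per cell cannot be told apart.

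**Figure D1:**
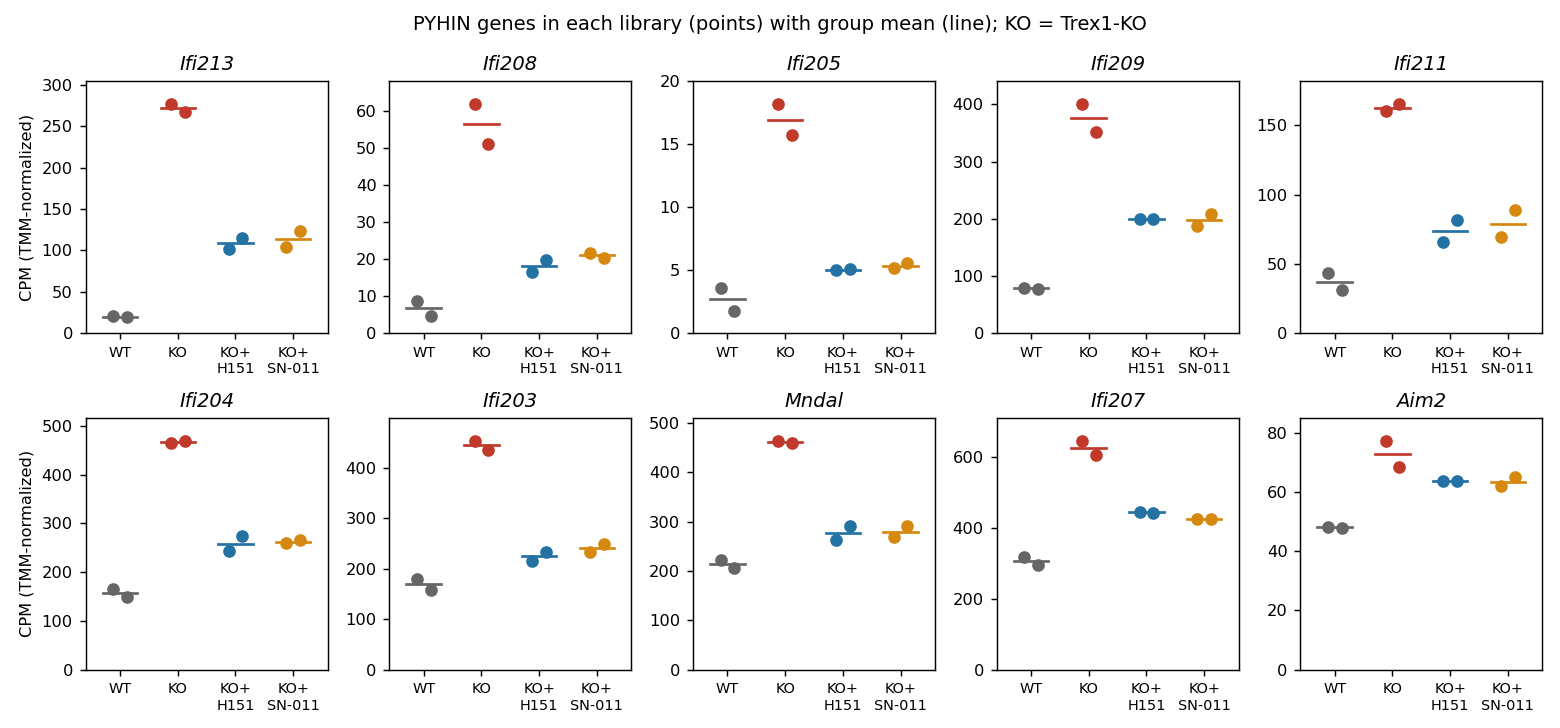
CPM (y axes, starting at 0) of each PYHIN gene in the 8 libraries, by group (x axes), with a point per library and a line at the mean of each group. Trex1-KO points lie above all others in each panel, and the H151 and SN-011 points lie between the WT and the Trex1-KO points, close to each other.

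The members with the lowest WT levels had the largest fold changes, and both measures rest on the same WT libraries. Ifi213 was at 20.8 and 18.8 CPM in the WT libraries and at 277 and 268 CPM in the Trex1-/- libraries. Its groups were far apart, with a log2 fold change of 3.78 ± 0.10 (SE; FDR 7.32e-11). Ifi208 was at 8.69 and 4.68 CPM in WT and at 62.0 and 51.1 CPM in Trex1-/- BMDMs. The Ifi208 groups did not overlap, although the WT libraries differed from each other, and its log2 fold change was 3.09 ± 0.19 (FDR 9.60e-08). Ifi205, whose protein is known to affect expression of the ASC adaptor, was the least counted member. It was at 3.61 and 1.76 CPM in WT, that is 49 and 26 counts, and at 18.2 and 15.7 CPM in Trex1-/- BMDMs. These groups also did not overlap, and the log2 fold change was 2.67 ± 0.24 (FDR 3.04e-06).

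Ifi209 and Ifi211 rose by more than 4-fold from intermediate levels. Ifi209 was at 78.8 and 77.3 CPM in WT and at 401 and 351 CPM in Trex1-/- BMDMs. The WT libraries of Ifi209 were nearly equal, and its log2 fold change was 2.27 ± 0.08 (FDR 5.16e-10). Ifi211 was at 43.1 and 31.0 CPM in WT and at 160.2 and 165 CPM in Trex1-/- BMDMs. The Ifi211 groups did not overlap, and its log2 fold change was 2.14 ± 0.14 (FDR 1.71e-07). Counts of Ifi205 and Ifi211 are less certain than those of the other members, because 36.1% of the 150-base windows of the longest Ifi205 transcript also occur in Ifi211, and 53.6% of the Ifi211 windows are unique among annotated transcripts. Among the other members the unique share ran from 89.2% for Ifi204 to 100% for Aim2 and Ifi207.

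The members already abundant in WT rose least among the Ifi genes. Ifi204, the IFI16-like member, was at 166 and 149.99 CPM in WT and at 465 and 469.9 CPM in Trex1-/- BMDMs. Its Trex1-/- libraries agreed closely, and its log2 fold change was 1.57 ± 0.07 (FDR 5.16e-09). Ifi203 went from 181 and 159 CPM to 454 and 435 CPM, with a log2 fold change of 1.39 ± 0.07 (FDR 1.51e-08). Mndal, a relative of human MNDA, went from 223 and 206 CPM to 464 and 459 CPM, with a log2 fold change of 1.11 ± 0.07 (FDR 8.47e-08). Ifi203 and Mndal share 37 exon bases on the same strand, and Mndal shares 118 with the pseudogene Gm38050, so that 4.27% of its exon length is not its own. Ifi207 went from 318 and 295 CPM to 645 and 604 CPM, a log2 fold change of 1.03 ± 0.06 (FDR 3.91e-08). Groups did not overlap in any of these genes.

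Aim2, the inflammasome sensor, changed least. It was at 48.1 and 48.0 CPM in WT and at 77.3 and 68.3 CPM in Trex1-/- BMDMs. Both Trex1-/- libraries were higher, and the log2 fold change was 0.60 ± 0.08 (FDR 9.56e-05), with a 95% interval of 0.43 to 0.77. The 95% interval of Ifi207, the next smallest, was 0.90 to 1.15. Differences in fold change between genes were not tested.

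**Figure D2:**
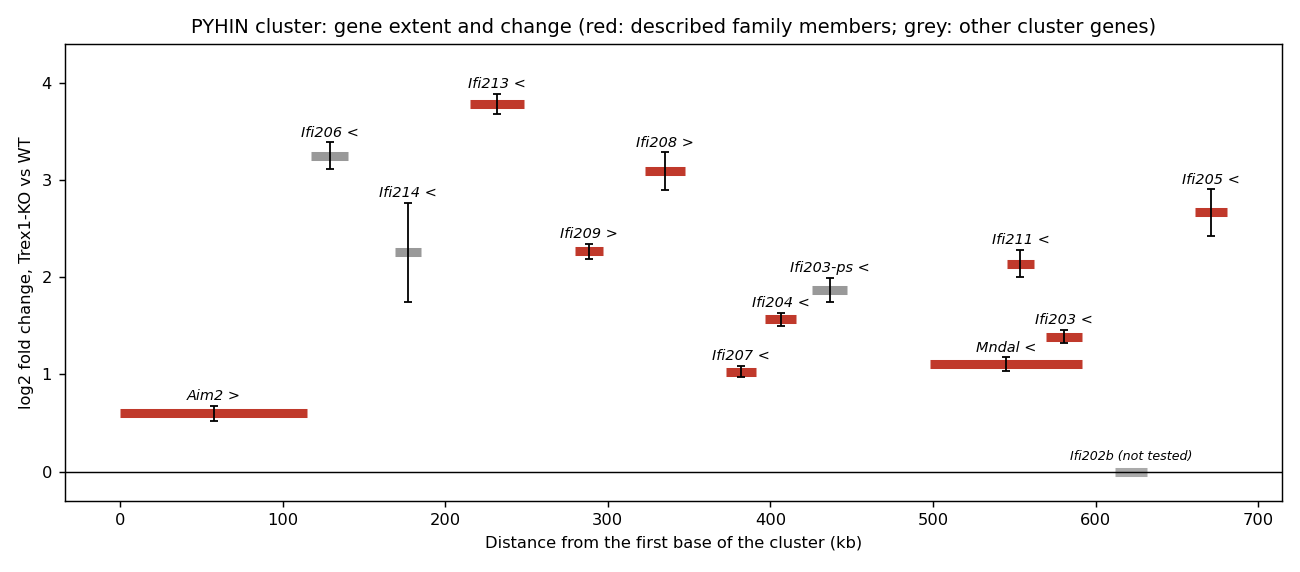
Log2 fold change of Trex1-KO over WT (y axis, bars show SE) drawn over the extent of each PYHIN gene along the cluster (x axis, kb from its first base), with red for the 10 members, grey for other cluster genes and arrows for strand. Aim2, at the left end, has the smallest rise, at 0.60, and the largest, Ifi213 at 3.78, lies further along, with members of small and large rise next to each other.

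The second comparison asked how the family responded to the STING antagonists. With H151, 9 of the 10 members fell relative to Trex1-/- BMDMs given DMSO, and 1.84% of all tested genes were called lower. With SN-011, 9 of the 10 members fell, against 2.22% of all tested genes. The median log2 fold change over the members was -0.95 with H151 and -0.91 with SN-011, and over all genes it was 0.00 and 0.01. Aim2 was the member that did not pass the test with either compound. Both treated libraries lay below both Trex1-/- DMSO libraries in all 10 members with each compound, which held for 17.9% of all genes with H151 and 21.6% with SN-011. Both comparisons use the same 2 Trex1-/- DMSO libraries.

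Ifi205 and Ifi208 had the largest falls. Ifi205 was at 4.97 and 5.10 CPM with H151 and at 5.18 and 5.52 CPM with SN-011, all below its 15.7 and 18.2 CPM in Trex1-/- BMDMs. Its log2 fold changes were -1.74 ± 0.22 with H151 (FDR 3.24e-04) and -1.66 ± 0.21 with SN-011 (FDR 4.99e-04). Ifi208 was at 16.5 and 19.7 CPM with H151 and at 21.7 and 20.4 CPM with SN-011. The treated libraries were all below the lower DMSO library at 51.1 CPM, with log2 fold changes of -1.63 ± 0.17 (FDR 6.99e-05) and -1.42 ± 0.17 (FDR 2.20e-04). Ifi213 was at 102 and 115 CPM with H151 and at 104 and 124 CPM with SN-011. These were again lower than either DMSO library, with log2 fold changes of -1.32 ± 0.09 (FDR 6.33e-06) and -1.27 ± 0.09 (FDR 1.04e-05).

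Ifi204 was at 243 and 275 CPM with H151 and at 259 and 265 CPM with SN-011, against 465 and 469.9 CPM without antagonist. The 4 treated libraries lay together, with log2 fold changes of -0.85 ± 0.07 (FDR 1.15e-05) and -0.84 ± 0.07 (FDR 2.23e-05). Ifi209 was at 199 and 199.9 CPM with H151 and at 188 and 208 CPM with SN-011, a log2 fold change of -0.92 ± 0.07 and -0.93 ± 0.07. The Ifi209 libraries of both treatments overlapped each other and stayed below those given DMSO.

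Ifi211 was at 65.9 and 81.5 CPM with H151 and at 69.6 and 88.5 CPM with SN-011, with log2 fold changes of -1.14 ± 0.13 and -1.05 ± 0.13. Ifi203 was at 216 and 234 CPM with H151 and at 233 and 248 CPM with SN-011, with log2 fold changes of -0.98 ± 0.07 and -0.89 ± 0.07. In both genes every treated library was lower than the DMSO libraries. Mndal was at 262 and 290.1 CPM with H151 and at 268 and 291 CPM with SN-011, with log2 fold changes of -0.74 ± 0.07 and -0.72 ± 0.07. Ifi207 was at 445 and 441 CPM with H151 and at 424 CPM in both SN-011 libraries, with log2 fold changes of -0.49 ± 0.06 and -0.56 ± 0.06. Ifi207 thus had the smallest falls among the called members. From Ifi209 to Ifi207, the largest FDR was 4.53e-04.

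Aim2 was at 63.7 and 63.8 CPM with H151 and at 62.0 and 65.1 CPM with SN-011, against 77.3 and 68.3 CPM in Trex1-/- BMDMs. The treated libraries lay just below the lower DMSO library. Its log2 fold changes were -0.19 ± 0.08 with H151 (edgeR unadjusted p = 0.0261, FDR 0.397) and -0.20 ± 0.08 with SN-011 (edgeR unadjusted p = 0.0218, FDR 0.294). The 95% intervals reached from -0.35 to -0.03 with H151 and from -0.36 to -0.03 with SN-011. Without replicate 1 of the Trex1-/- DMSO group these values were -0.10 and -0.11.

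**Figure D3:**
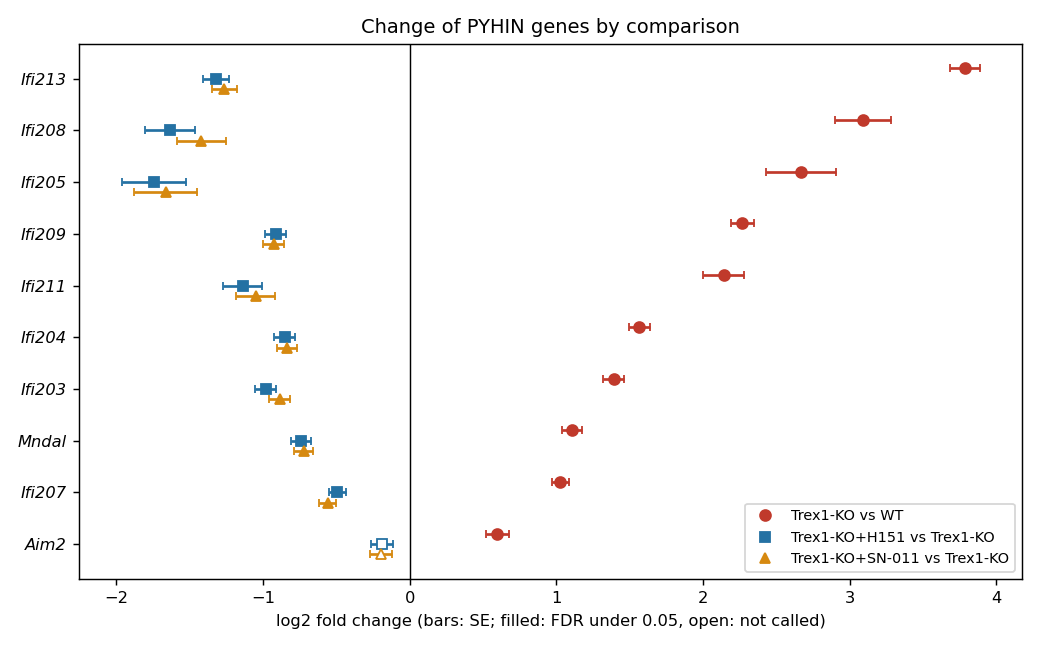
Log2 fold change (x axis, bars show SE) of each PYHIN gene (y axis) for Trex1-KO over WT and for each antagonist over Trex1-KO, with filled symbols for FDR under 0.05. All 10 genes lie right of 0 for Trex1-KO over WT, and the antagonist values lie left of 0, with open symbols only for Aim2.

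H151 and SN-011 were compared directly, both at 12 h. None of the 10 members was called (edgeR quasi-likelihood test), and 0 had an unadjusted p under 0.05. Over all genes 23 were called (0.158%), and 1300 had an unadjusted p under 0.05. DESeq2 and the edgeR exact test also called 0 of the 10. Differences of SN-011 over H151 ran from -0.06 ± 0.06 for Ifi207 to 0.21 ± 0.18 for Ifi208 on the log2 scale, with a median of 0.04. For Ifi204 the 95% interval was -0.13 to 0.17, and for Aim2 it was -0.17 to 0.16. It was widest for Ifi205, at -0.45 to 0.61, which reaches a 1.52-fold difference. Values this close do not show that the compounds act alike.

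**Figure D4:**
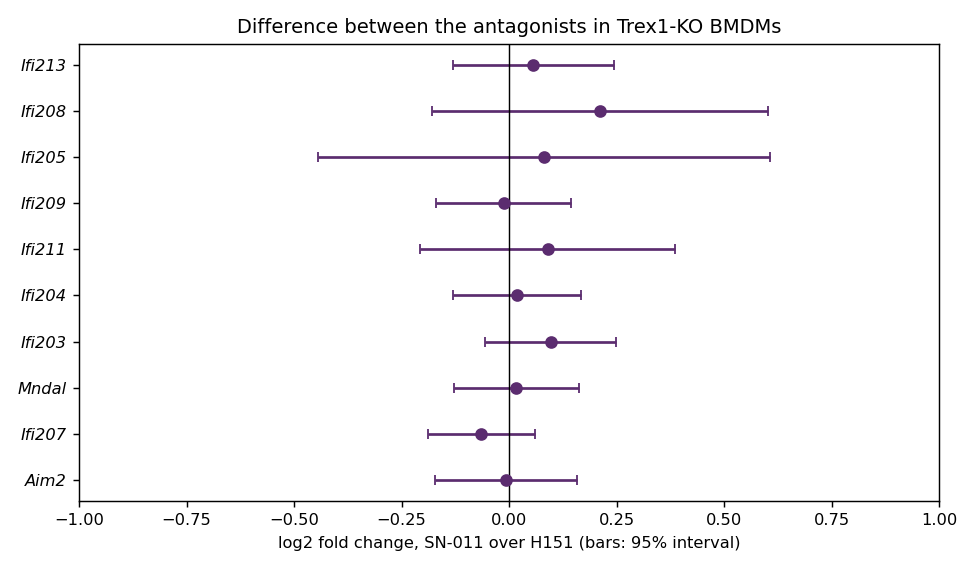
Log2 fold change of SN-011 over H151 in Trex1-KO BMDMs (x axis, bars show 95% intervals) for each PYHIN gene (y axis). Every interval includes 0, and those of Ifi208 and Ifi205, the least counted members, are widest.

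The last comparison asked whether treated Trex1-/- BMDMs returned to WT levels. All 10 members were higher than WT with H151 (6.79% of all genes were called higher) and with SN-011 (6.18%). Median log2 fold changes over WT were 0.82 and 0.87. Ifi213 was highest above WT, at 2.46 ± 0.10 with H151 and 2.52 ± 0.10 with SN-011, that is 5.52-fold and 5.73-fold. Ifi208 followed at 1.46 ± 0.21 and 1.67 ± 0.21, and Ifi209 at 1.35 ± 0.08 and 1.34 ± 0.08. Mndal was nearest to WT, at 0.37 ± 0.07 (FDR 0.00275) and 0.38 ± 0.07 (FDR 0.00194), and Aim2 was at 0.41 ± 0.08 (FDR 0.00330) and 0.40 ± 0.08 (FDR 0.00362). Ifi205 was called at 0.92 ± 0.27 (FDR 0.0425) and 1.00 ± 0.27 (FDR 0.0257), but this call was lost under several alternatives. Without WT replicate 2 its log2 fold changes were 0.48 (edgeR FDR 0.322) and 0.56 (edgeR FDR 0.234), and without WT replicate 1 they were 1.51 and 1.59. Without a treated library the FDR was 0.0853 or 0.0952 for H151 and 0.105 or 0.127 for SN-011. The H151 call was also lost with total-count scaling (FDR 0.0567) and in a fit of only the groups compared (FDR 0.0852).

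Genes that work with AIM2 were read from the same fit. Of 10 inflammasome partners, 5 were higher in Trex1-/- than in WT BMDMs, and 1 fell with each antagonist. Over all tested genes 9.27% were called higher in Trex1-/- BMDMs, 1.84% lower with H151 and 2.22% lower with SN-011. Casp1, the protease activated by the AIM2 inflammasome, rose by 0.58 ± 0.07 on the log2 scale (FDR 4.85e-05), and Casp4, the caspase of the non-canonical pathway, by 0.99 ± 0.13 (FDR 1.39e-04). Il18 rose by 0.50 ± 0.12, and Gsdmd, the pore-forming substrate of these caspases, by 0.26 ± 0.07. Il1a, named after its values were seen, rose by 1.53 ± 0.42. Pycard, which encodes ASC and was also named after its values were seen, was at -0.27 ± 0.13 (FDR 0.210). Casp4 was the partner whose fall passed the test, by 0.70 ± 0.13 with H151 (FDR 0.00916) and by 0.84 ± 0.13 with SN-011 (FDR 0.00260). Il1a was at -1.71 ± 0.43 with H151 (FDR 0.0690) and -1.64 ± 0.43 with SN-011 (FDR 0.0702), with all treated libraries below those given DMSO. Il1b, also named after its values were seen, was at -0.88 ± 0.28 (FDR 0.185) and -1.02 ± 0.28 (FDR 0.0873). The median over the partners was 0.34 for Trex1-/- over WT.

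Among 6 tested genes for other inflammasome sensors, 4 rose in Trex1-/- BMDMs and 1 fell, while 9.27% of all tested genes were called higher. Nlrp1b rose by 0.49 ± 0.06, Mefv (pyrin) by 1.07 ± 0.19, Naip2 by 0.36 ± 0.08 and Nlrp3 by 0.24 ± 0.07 on the log2 scale. Nlrc4, named after its values were seen, fell by 0.39 ± 0.11. With the antagonists, Nlrp3 was the sensor whose fall passed the test, by 0.45 ± 0.07 with H151 and by 0.40 ± 0.07 with SN-011. Mefv was at -0.02 ± 0.17 with H151 and at -0.74 ± 0.18 with SN-011 (FDR 0.0537), and SN-011 over H151 was -0.71 ± 0.18 (edgeR unadjusted p = 0.00178, FDR 0.258). Of 18 tested genes for other DNA sensing, 4 rose and 1, Hmgb1 (named after its values were seen), fell. Irf7, the interferon regulatory factor induced by interferon itself, rose by 2.62 ± 0.12, Zbp1 by 2.12 ± 0.12, the sensor gene Cgas by 0.75 ± 0.15 and the endosomal DNA receptor gene Tlr9 by 0.26 ± 0.08. These 4 fell with H151, and Irf7, Zbp1 and Tlr9 fell with SN-011, where Cgas was at -0.42 ± 0.15 (FDR 0.246). Tmem173, which encodes STING and was named after its values were seen, was at 0.23 ± 0.09 in Trex1-/- over WT (FDR 0.129).

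Other genes of the cluster were measured alongside. Ifi206 rose from 12.5 and 8.47 CPM in WT to 107 and 91.4 CPM in Trex1-/- BMDMs, a log2 fold change of 3.25 ± 0.14, and fell by 1.42 ± 0.12 with H151 and by 1.41 ± 0.12 with SN-011. Ifi203-ps, an unprocessed pseudogene, rose by 1.87 ± 0.12 and fell by 1.29 ± 0.12 and 1.15 ± 0.12. Ifi214, with 5 and 16 counts in the WT libraries, rose by 2.25 ± 0.51 (FDR 0.00686) and did not pass the test with either antagonist (-1.32 ± 0.46 and -1.22 ± 0.45). Ifi202b, whose protein lacks a pyrin domain, had between 0 and 5 counts per library and was not tested.

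For scale, 20 interferon-stimulated genes listed by name were all higher in Trex1-/- BMDMs, with a median log2 fold change of 2.07. With H151, 20 of them fell, and with SN-011, 18. The shares over all tested genes were 9.27% higher, and 1.84% and 2.22% lower. Of the 10 PYHIN members, 5 are in the study's M7core list, namely Ifi203, Ifi204, Ifi205, Ifi211 and Mndal, with rises in Trex1-/- BMDMs between 1.11 and 2.67 on the log2 scale. The others ran from 0.60 to 3.78. The study drew M7core from a gene module, keeping genes bound by the factor IRF2 and raised by a cGAS agonist in fibroblasts. It focused on that module after seeing its rise in Trex1-/- BMDMs and hearts. M7core was thus put forward with these libraries in view and is no independent evidence. The genes whose 3 log2 fold changes against WT lay nearest to the median pattern of the members, by Euclidean distance among 2380 called genes, were Gvin1, an interferon-inducible GTPase gene (distance 0.0250), Helz2 (0.0900), H2-T24 (0.131), Ifi47 (0.136) and Gm12250 (0.243). Nearest to Aim2 were Ppp2r1b (0.0299), a phosphatase scaffold gene, Mcoln2 (0.0423) and Anxa4 (0.0555).

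Cell type markers also moved with genotype. Of the 10 macrophage markers, 3 were higher in Trex1-/- than in WT BMDMs, with log2 fold changes of 1.14 ± 0.08 for Fcgr1, 0.44 ± 0.06 for Cd68 and 0.19 ± 0.05 for Adgre1, and Fcgr1 also fell by 0.50 ± 0.08 with H151 and by 0.49 ± 0.08 with SN-011. Cd4 was lower in Trex1-/- BMDMs, at -0.68 ± 0.10 (edgeR FDR 3.29e-04). The 4 tested neutrophil genes, S100a8, S100a9, Ngp and Camp, were all higher in Trex1-/- BMDMs. The 7 neutrophil genes summed to between 7.66 and 7.86 CPM in WT, 50.0 and 70.3 CPM in Trex1-/- BMDMs, 64.3 and 65.0 CPM with H151, and 63.5 and 79.8 CPM with SN-011, with Ly6g at no more than 3 counts. Against Trex1-/- BMDMs, log2 fold changes of the 4 genes lay between 0.02 and 0.21 with H151 and between 0.02 and 0.49 with SN-011, and these did not pass the test. Of 3 tested dendritic cell genes, Xcr1 was called higher in Trex1-/- BMDMs, with 3 and 1 counts in WT and 16 and 15 in Trex1-/- BMDMs, a log2 fold change of 2.88 ± 0.68 (edgeR FDR 0.00965). Xcr1 was at 10 and 25 counts with H151 and 14 and 9 with SN-011, also called above WT. Zbtb46, of the same list, lay the other way at 1.91 and 0.949 CPM in WT and 0.604 and 0.528 CPM in Trex1-/- BMDMs, with a log2 fold change of -1.32 ± 0.50 that did not pass the test (edgeR FDR 0.0951), and was at 1.51 ± 0.49 with SN-011 over Trex1-/- BMDMs (edgeR FDR 0.178). Itgax was at 0.26 ± 0.27 in Trex1-/- over WT BMDMs. The 6 dendritic cell genes summed to between 4.54 and 5.30 CPM in WT and 5.21 and 5.54 CPM in Trex1-/- BMDMs, with Ccr7 at 0. The 5 erythroid genes summed to no more than 1.91 CPM in any library. The 6 stromal genes summed to between 2069 and 2265 CPM in WT and 849 and 1046 CPM in Trex1-/- BMDMs, with 4 of 5 tested called lower. Their part in the rise of the PYHIN genes was not tested.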

How the data were processed

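RNA-Seq counts of 8 BMDM libraries were analysed. Per the labels and the study's methods, the authors trimmed reads, aligned them with HISAT2 and counted them per gene (featureCounts in the methods, HTSeq in the submitters' processing notes, build mm10, no versions given). The deposited values are raw counts for 54532 genes per library, with no normalization, and 54495 identifiers were found in GENCODE M21 (GRCm38). The study's methods state that only read pairs with a unique alignment were counted. Reads from near-identical copies may therefore have been lost or assigned to another copy.

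Tests used edgeR 4.0.16 (R 4.3.3). Low genes were removed by filterByExpr at a minimum count of 10 and total of 15, and TMM factors ran from 0.973 to 1.04. A single quasi-likelihood model covered the 8 libraries, and two-sided tests were adjusted by Benjamini-Hochberg over 14591 genes at an FDR of 0.05. SE was derived from the log2 fold change and its F statistic, and the common biological coefficient of variation was 0.0656. CPM uses TMM-scaled totals, and RPKM divides it by exon length. The floor of 3 counts was between 0.175 and 0.255 CPM. Counting error is not the only error, since reads without molecular identifiers are not independent molecules. On simulated data the fit called nearly all changed genes of good depth but missed part of the 2-fold changes in low-count genes, below the share first set as the aim. The aim was then restricted to well-counted genes, so an uncalled low-count gene may still have changed. Transcript identity is from blastn. Alternatives were total-count and DESeq2 1.42.0 scaling, DESeq2, the edgeR exact test, fits of 2 groups, other filters, a replicate block and leaving out each library.

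The members and gene lists were chosen with earlier results of these data known. Besides the members, up to 4 called genes per related list (smallest FDR) and the genes with the nearest patterns were named by rule. Other genes of these lists are marked as named after their values were seen, and Ifi202b and the cell type markers were also named outside this rule.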

Additional observations from a re-analysis of the deposited data

How the results depend on the processing

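Across every alternative run, 10 members were called in Trex1-/- over WT and 9 lower with each antagonist, and member medians kept their sign except for SN-011 over H151. Of 550 member values in the other 5 comparisons, 542 kept direction and call and 8, all Ifi205 against WT, lost the call.

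Medians over leave-one-out fits ran from 1.71 to 1.96 (Trex1-/- over WT), 0.56 to 1.02 (H151 over WT) and 0.61 to 1.07 (SN-011 over WT), and members called over WT from 9 to 10 under each compound. For SN-011 over H151, where no member was called, 9 member values turned sign among the 4 fits without 1 library, and values spanned -0.0706 to 0.1104 for Ifi204, -0.0873 to 0.06 for Ifi209, -0.086 to 0.2607 for Ifi211, -0.0735 to 0.183 for Ifi213, -0.0577 to 0.0932 for Mndal and -0.0399 to 0.0289 for Aim2.

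The median level per length in Trex1-/- BMDMs was 78.8 RPKM. It was 78.95 RPKM with unshared exon length as divisor, 125.7 with the number of unique windows, and 76.82 with total counts only. Over all genes, SN-011 against H151 gave 23 calls, but 38 with DESeq2, 70 with the exact test, 266 without the filter, 44 with the block, 270 without H151 replicate 2, and 11 and 2 without SN-011 replicate 2 and 1. SN-011 over Trex1-/- gave 340, but 572 with the exact test 679 without the filter, and 121 to 293 leaving out a library, and H151 gave 325 but 525 without the filter. Leaving out a library gave as few as 1588 calls in Trex1-/- over WT (2390 with all), 986 with H151 over WT (1726) and 906 with SN-011 over WT (1714).

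The study calls the replicates independent experiments but does not say that a number marks the same experiment in every group, and deviations of same-numbered libraries correlated between -0.02 and 0.19. With the number as a replicate block, 10 members were called in Trex1-/- over WT, 9 with H151 and 9 with SN-011, and no member call changed.

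With 2 libraries per group, low counts limit what can be said of Ifi205, the least counted member. The same holds for low-count PYHIN genes of the cluster outside the 10 members, such as Ifi214 and Ifi202b. Shared sequence limits Ifi205 and Ifi211.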

Other observations

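The word GAAATCGAAA, picked after the promoters were seen, was in 16 promoters. Outside the PYHIN cluster it was in those of 9 genes, of which 6 were tested. Ddx58, which encodes the RNA sensor RIG-I, rose in Trex1-/- BMDMs by 1.47 on the log2 scale, Gm26797 by 2.24 and Parp11 by 1.24 (edgeR FDR 5.72e-08, 0.00171 and 2.20e-07). Pnrc1, Ripk1 and Serpinb6a were at 0.23, 0.08 and 0.03 and were not called. Over all tested genes 9.27% were called higher. PYHIN promoters share ancestry, so their matches are not independent of each other.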
